A study of Homo sapiens with 17 samples.

Results

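The comparison of SNU-761 cells given intetumumab at 5 µg/ml with cells given an isotype antibody at 5 µg/ml rests on 6 of the 17 libraries of the series, 3 in each group, and they were taken by the names of their columns in the count table. SNU-761 is an established human liver carcinoma cell line, listed as wild type, and all 6 libraries came from cells collected 4 h after the antibody was added. Intetumumab, here a biosimilar that the labels describe as directed against ITGAV and ITGB3, was set against human IgG1 kappa from myeloma plasma. The other libraries used here came from the same line with intetumumab at 1.5 µg/ml (n = 3), with the TEAD inhibitor VT107 at 2.15 µM or its solvent DMSO (n = 2 each), and from cells of the antibody experiment that received no thiouridine (1 library). The labels do not state that the replicates are separate cultures, so each p-value measures only the spread between these libraries, which may be technical.

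Integrins are paired alpha and beta chains that span the cell membrane and tie matrix proteins outside to actin filaments inside. Those with the alpha-v chain bind matrix proteins such as vitronectin and fibronectin and can release active TGF-beta from its latent form. Their adhesions feed into focal adhesion kinase and, through actin, into the transcriptional regulators YAP, TAZ and MRTF. An antibody that blocks alpha-v integrins could therefore reach transcription by several routes, and the series asks which RNAs change soon after it is added. SLAM-seq counts RNA made during the experiment: thiouridine enters new RNA, is alkylated, and then shows up as T-to-C changes in the reads.

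The table lists genes by Ensembl ID with no names, and the name table used here held an Ensembl ID for 0 genes. For each comparison no more than 2 IDs per direction are printed, and other genes are described by their rank of p-value. No functional class, gene list, liver marker, level of the ITGAV or ITGB3 genes, or promoter sequence could be read from these files, and none is given. The 6 libraries held 753142, 751380 and 950281 counts with the isotype and 435343, 742611 and 783734 counts with intetumumab at 5 µg/ml. The chi-square per degree of freedom between 2 replicates was 3.66 to 5.69, above sampling noise, so all 6 were kept as separate samples.

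Of 9024 genes with enough counts to test, 8 were called at an adjusted p under 0.05, which is 0.0887% of those tested. New RNA of 6 genes fell (0.0665%) and that of 2 genes rose (0.0222%) after 4 h of intetumumab at 5 µg/ml. The 6 falls were modest in size, between 1.43-fold and 2.24-fold, and lay among strongly counted genes, with percentiles of mean level from 90.8 upward. The 2 rises were larger, 3.61-fold and 6.63-fold, and lay in the middle of the range, at percentiles 36.8 and 63.8. The test was edgeR's quasi-likelihood test with Benjamini-Hochberg adjustment, two-sided, in a fit of 9 libraries that also held the 1.5 µg/ml group. Fitted on the 6 libraries alone, 1 gene was called, the third fall (edgeR adjusted p = 0.0419), and the other 7 lay just past the threshold (adjusted p 0.0504 to 0.0556) with folds of the same size. The calls depended on every library: edgeR called 0 genes when any 1 of isotype replicates 1, 2 and 3 was left out (647, 684 and 722 genes had an unadjusted p under 0.05), 0 when treated replicate 1 or 2 was (738 and 1106 such genes), and 3 falls when treated replicate 3 was. DESeq2, given the same 9024 genes, called 100 (30 higher and 70 lower), among them the 6 falls. It gave no adjusted p for either rise, so its adjustment covered fewer genes and did not judge the rises.

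**Figure D1:**
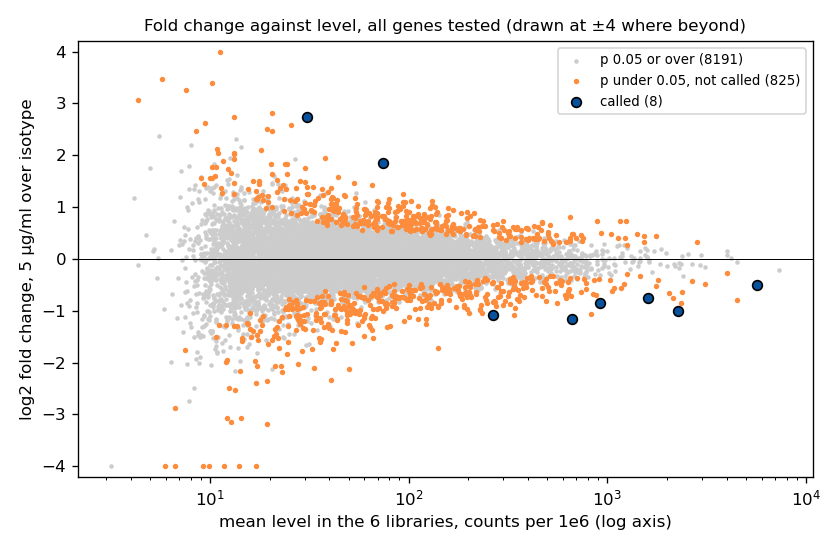
Log2 fold change of intetumumab 5 µg/ml over isotype (vertical axis) against mean counts per 1e6 in the 6 libraries (horizontal log axis), 1 point for each of the 9024 genes tested; values beyond the axis limits are drawn at the edge. The 6 called falls sit at the right, among strongly counted genes, and the 2 called rises in the middle of the range.

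The first fall by p-value, ENSG00000142871, was one of the most strongly counted genes of the experiment (percentile 99.7). Its levels, in counts per 1e6 after TMM scaling (CPM), were 3024, 3134 and 2889 with the isotype and 1636, 1750 and 1147 with intetumumab at 5 µg/ml. All treated libraries lay below all isotype libraries, and replicate 3 of the treated group was the lowest. The means were 3016 ± 123 and 1511 ± 320 CPM (SD, n = 3 each), and the log2 fold change was -0.998 (SE 0.14, edgeR adjusted p = 0.0231). Without that low library the log2 fold change was -0.83 and the edgeR call remained (adjusted p = 0.0322).

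ENSG00000167767 gave the second fall. It stood at 372, 378 and 339 CPM with the isotype and at 161, 184 and 166 CPM with intetumumab at 5 µg/ml. The groups lay far apart, and the libraries within each were close to each other. The means were 363 ± 21.1 and 171 ± 11.9 CPM (SD, n = 3 each), and the log2 fold change was -1.09 (SE 0.16, edgeR adjusted p = 0.0231). Its raw counts were even in every labelled library (272, 274 and 314 with the isotype, 70, 136 and 130 treated). When each gene with a common divisor was divided by it, its edgeR adjusted p was 0.0608 at a log2 fold change of -1.09, so the call was lost while the size was kept.

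The third fall was the steepest of the 6, from 867, 904 and 974 CPM with the isotype to 371, 458 and 394 CPM. Its log2 fold change was -1.16 (SE 0.17, edgeR adjusted p = 0.0231). The fourth fall was the shallowest and belonged to the gene with the most counts among the 8. It stood at 6567, 6923 and 6385 CPM with the isotype and at 4590, 4496 and 4846 CPM treated, a log2 fold change of -0.51 (SE 0.08, edgeR adjusted p = 0.0231). All 3 treated libraries were below all 3 isotype libraries for both genes.

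The fifth fall went from 2033, 2079 and 1894 CPM with the isotype to 1240, 1108 and 1223 CPM (log2 fold change -0.75, SE 0.11). The sixth went from 1105, 1112 and 1334 CPM to 617, 730 and 615 CPM (log2 fold change -0.85, SE 0.13). In both, all 3 treated libraries were below all 3 isotype libraries, and the edgeR adjusted p was 0.0231, the same for all 8 genes. Isotype replicate 3 stood above the other isotype libraries for the sixth fall.

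The first rise, ENSG00000077063, had few counts with the isotype. Its raw counts were 3, 8 and 8 with the isotype and 22, 34 and 50 with intetumumab at 5 µg/ml, or 4.10, 11.05 and 8.64 against 50.7, 46.0 and 64.0 CPM. The groups did not overlap, and the lowest treated library was several times the highest isotype library. The log2 fold change was 2.73 (SE 0.39, edgeR adjusted p = 0.0231). Across single libraries left out it stayed between 2.44 and 2.998, with the edgeR call lost each time.

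The second rise, ENSG00000073737, stood at 32.8, 24.9 and 38.9 CPM with the isotype and at 124, 97.4 and 131 CPM treated. The groups again did not overlap, and the log2 fold change was 1.85 (SE 0.28, edgeR adjusted p = 0.0231). All its labelled counts were multiples of 6, from 18 to 36 with the isotype and from 54 to 102 treated, so fewer reads may lie behind them than the counts show. After division by this common divisor the edgeR adjusted p was 0.263, with a log2 fold change of 1.81.

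**Figure D2:**
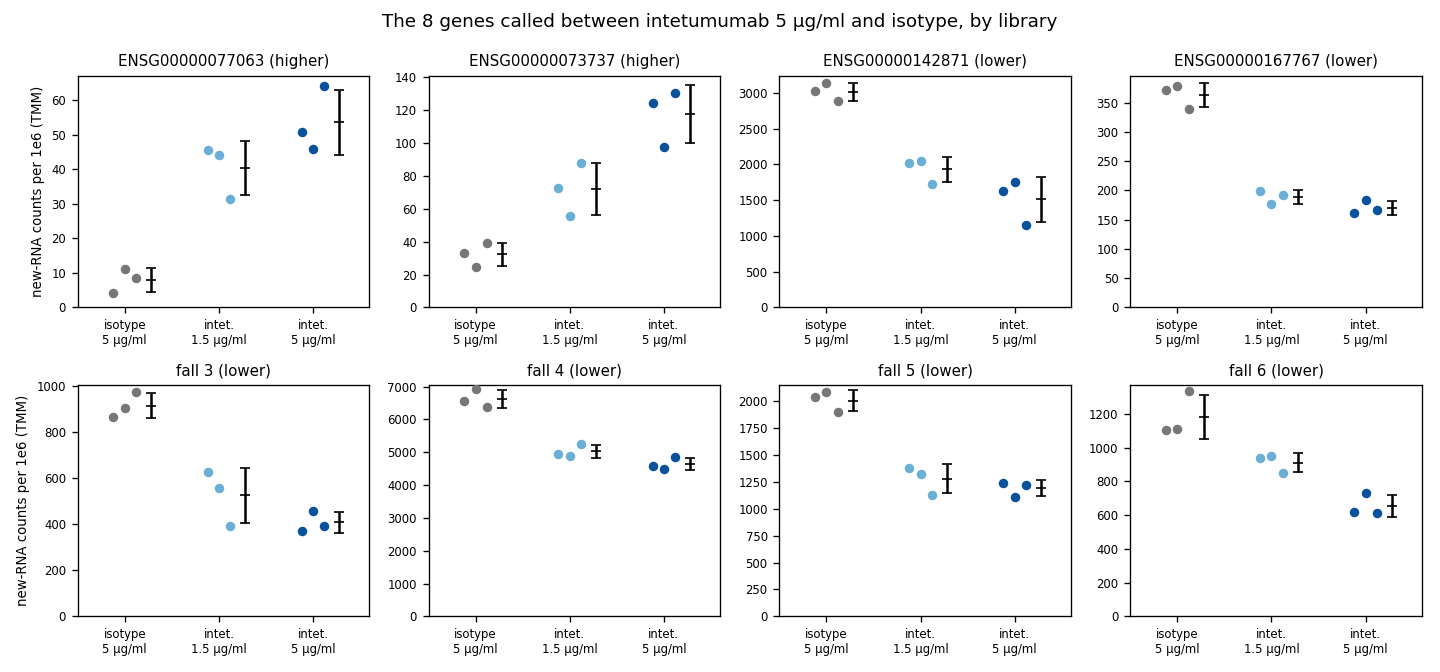
Counts per 1e6 after TMM scaling of each called gene (vertical axes from 0) in the isotype libraries and at both antibody doses; each point is 1 library, and the bar beside them is the mean ± SD (n = 3). In all 8 panels the 5 µg/ml libraries lie wholly on one side of the isotype libraries, and the mean at 1.5 µg/ml lies between the other means. The genes were chosen by the difference between isotype and 5 µg/ml, so this order is partly built in.

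Just outside the threshold the values leaned one way. Between an adjusted p of 0.05 and 0.1 lay 11 of the 9024 genes tested, all with lower values at 5 µg/ml (edgeR adjusted p 0.0699 to 0.0891), and 0 with higher values. Of these 11 genes, 7 were at or above percentile 90 by level. The next gene with higher values had an edgeR adjusted p of 0.156. The 10 uncalled genes that led in the higher direction had log2 fold changes of 0.43 to 2.51, and 8 of them lay above percentile 75 by level. The 6 that led in the lower direction included a gene with no count in any of the 3 treated libraries.

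Over all genes tested, the median log2 fold change was 0.00, and 90% of genes lay between -0.85 and 0.77. TMM scaling places the middle of the fold changes near 0, so this median is not a result (0.04 under total count scaling). Rises and falls are relative to the other new RNA of a library. Whether total new RNA changed was not tested. Before adjustment, 833 genes (9.23%) had a p under 0.05, against 451 expected without change: values were higher in 391 of them (4.33% of those tested) and lower in 442 (4.9%). Their median log2 fold changes were 0.75 and -0.81. This lean to lower values turned under total count scaling, with 483 higher and 369 lower, while the 8 calls were the same genes. Groups that did not overlap were found for 15.9% of genes, 689 genes with higher values (7.64%) and 745 with lower values (8.26%). Full separation of 3 against 3 libraries has p = 0.1 in an exact two-sided permutation test. About that share of genes would therefore separate without any change.

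Strongly counted genes differed more often. With genes ranked by level and split into 4 bins of the same size, lowest first, groups did not overlap in 12.5%, 13.7%, 14.9% and 22.4% of genes, and 0, 1, 1 and 6 genes were called. The top bin had 160 genes with higher and 196 with lower values at an unadjusted p under 0.05, and the bottom bin had 59 and 59. The median SE of a log2 fold change was 0.58 in the bottom bin and 0.22 in the top bin, so a change of a given size was easier to see in strongly counted genes. In the bottom bin the genes at that p had a median absolute log2 fold change of 1.54, and in the top bin 0.60.

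The most strongly counted genes held less of the treated libraries. The 10 top genes of each library took 4.86%, 5.10% and 4.95% of its counts with the isotype and 4.34%, 4.51% and 4.11% with intetumumab at 5 µg/ml. The 100 top genes took 19.0% ± 0.290 with the isotype and 17.9% ± 0.256 at 5 µg/ml (SD, n = 3 each). The groups did not overlap in either measure. An exact two-sided permutation test gave p = 0.1 for each (0.1 after Benjamini-Hochberg adjustment over both), the smallest that 3 against 3 libraries allow. At 1.5 µg/ml the shares were 4.46% ± 0.110 and 18.1% ± 0.275 (SD, n = 3). These shares are not separate from the falls described above, since they include strongly counted genes that fell. The fourth fall, for example, had means of 6625 CPM with the isotype and 4644 CPM at 5 µg/ml. How much of the lower shares such genes made up was not tested. The measure was chosen after the data were seen, and the part of library depth in it was not tested.

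Some genes were counted in every library of one group and in none of the other. Among the 13153 genes with a count in any of the 6 libraries, 44 such genes had no count at 5 µg/ml and 23 had none with the isotype. The groups held 1961688 and 2454803 counts in all, and the part of this depth in the difference was not tested. For the 44 and the 23 genes, the median of the summed counts in the group that had them was 12 and 8. Most were therefore near the limit of detection. The largest had 11, 33 and 22 counts with the isotype, 54, 10 and 0 at 1.5 µg/ml and 0 in all 3 libraries at 5 µg/ml. It was at least 18.3-fold lower at 5 µg/ml than with the isotype (3 counts over the group as the floor, counting error only), with an edgeR adjusted p of 0.292. In the other direction the largest had 22, 9 and 9 counts at 5 µg/ml and 0 in all 3 libraries both with the isotype and at 1.5 µg/ml, at least 19.7-fold higher, and was below the limit for testing. Of the 67 genes, only 4 passed the filter and were tested, all at 0 with 5 µg/ml, and 0 of these were called by edgeR. With no filter on low counts, 1 of these 4 had an edgeR adjusted p of 0.0330.

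At the lower dose of 1.5 µg/ml, which was set against the same isotype libraries, the 8 genes had values in the same direction. The 6 falls had log2 fold changes of -0.38 to -0.94 there (median -0.64, against -0.93 at 5 µg/ml) and the 2 rises 2.33 and 1.13. None passed after adjustment at 1.5 µg/ml (edgeR adjusted p 0.171 to 0.729). The 8 genes were chosen for the distance of the 5 µg/ml libraries from these same isotype libraries. A shared direction, a smaller change at 1.5 µg/ml and a mean between the others are therefore partly built in. They are given as a description. For ENSG00000142871 the 1.5 µg/ml libraries held 2020, 2048 and 1722 CPM, and for ENSG00000167767 they held 199, 176 and 192 CPM. ENSG00000077063 stood at 45.7, 44.0 and 31.3 CPM and ENSG00000073737 at 72.6, 55.6 and 87.7 CPM. For all 8 genes the mean at 1.5 µg/ml lay between the isotype and the 5 µg/ml means.

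**Figure D3:**
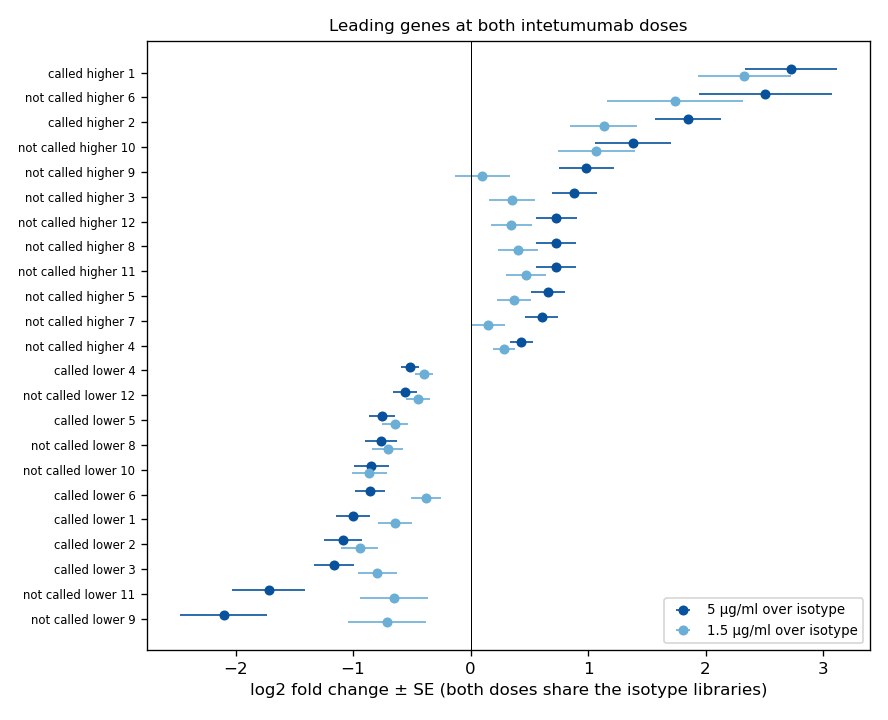
Log2 fold change ± SE over isotype at 5 µg/ml (dark) and 1.5 µg/ml (light) for the leading genes in each direction, ranked by p-value, without the gene that had no count at 5 µg/ml. Every called gene has the same sign at both doses and a smaller change at 1.5 µg/ml. This is partly built in, since the genes were chosen at 5 µg/ml and both doses share the isotype libraries.

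Set directly against each other, the doses did not differ in any of the 8 genes after adjustment (edgeR adjusted p 0.778 to 0.952). The 8 genes were chosen by their 5 µg/ml values, so small p-values are partly built in here too. An unadjusted p under 0.05 was found for 3 of the 8, where 5.64% of all genes had one. The smallest was that of the sixth fall, at 654 ± 66.0 CPM with 5 µg/ml and 912 ± 56.2 CPM with 1.5 µg/ml (log2 difference -0.48, SE 0.13, edgeR adjusted p = 0.778). ENSG00000077063 differed by 0.40 (SE 0.34) and ENSG00000167767 by -0.14 (SE 0.16). Among the 24 leading genes, 1 passed in this comparison, ENSG00000196998, which was also the only gene of all tested to pass (0.0111%). It had 40, 51 and 22 counts at 1.5 µg/ml, 5, 10 and 14 with the isotype and 0 in all 3 libraries at 5 µg/ml. It was not called against the isotype (edgeR adjusted p = 0.0699) and stood higher at the lower dose than in either other group. Without the 1.5 µg/ml libraries it did not pass the filter, and the fit of 6 libraries tested 23 of the 24. Its call between doses is therefore partly built in, since the group that let it be tested is the group where it was high.

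VT107 at 2.15 µM was compared with DMSO in the other experiment, which shares no library with this one. The log2 fold changes of the 8 genes had the same sign as with intetumumab in 7, where 55.3% of the 8847 genes tested in both experiments did. The third fall also fell with VT107 (log2 fold change -1.92, SE 0.20, edgeR adjusted p = 0.0193), where 0.109% of 10083 genes were called lower. ENSG00000142871 stood at 2811 and 4027 CPM in DMSO and 2733 and 3053 CPM with VT107, groups that overlapped (log2 fold change -0.24, SE 0.18, edgeR adjusted p = 0.676). ENSG00000077063 stood at 15.02 and 18.4 CPM in DMSO and 80.1 and 58.6 CPM with VT107 (log2 fold change 2.05, SE 0.43, edgeR adjusted p = 0.129). ENSG00000073737, among the 7 with the same sign, had no count in either DMSO library and 18 and 24 counts with VT107. In that experiment it could pass the filter only through the group where it was high, so its shared sign is partly built in. Its fitted change with VT107 depends on how counts of 0 are handled. These counts also share the common divisor described above, so fewer reads may lie behind them. When the effects of both agents were tested against each other, 0 of the 8 genes passed (edgeR adjusted p 0.131 to 0.780), where 0.0782% of 10227 genes did. An unadjusted p under 0.05 was found for 5 of the 8, ENSG00000073737 with its DMSO counts of 0 among them, where 9.06% of all had one. These differences include the change with intetumumab by which the 8 genes were chosen, so a share above that of all genes is partly built in. The widest of these differences among the falls was that of the sixth fall, which stood at 797 and 669 CPM in DMSO and 766 and 736 CPM with VT107 (difference -0.89, SE 0.21, edgeR adjusted p = 0.131).

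The library without thiouridine held 4553 counts, 0.628% of the mean labelled library of its experiment. It held 5 counts for ENSG00000142871 and 2 for the fifth fall, where labelled libraries of the 2 groups had at least 710 and 538. For the other 6 called genes it held 0.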

How the data were processed

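New RNA was measured by SLAM-seq with 3′ end libraries (QuantSeq) in 17 libraries. The authors deposited raw counts per Ensembl gene ID, made from reads assigned to newly made transcripts with SLAM DUNK, per the series design text; per the submitters' processing notes, the build was GRCh38. Not given in the sources used here are the annotation, the version of the pipeline, how many conversions a read needed, and how reads matching several genes were treated. Reads of gene copies or overlapping genes may be split or shared.

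Libraries were grouped by sample title. The 9 labelled libraries of the antibody experiment entered 1 fit without a replicate term. Genes were kept by filterByExpr of edgeR 4.0.16 (R 4.3.3, minimum count 10), counts scaled by TMM, and groups compared by the two-sided quasi-likelihood test with Benjamini-Hochberg adjustment over all genes; calls needed an adjusted p under 0.05. The effects of the 2 agents were compared in 1 fit of all labelled libraries; the VT107 levels come from a fit of that experiment alone. DESeq2 1.42.0 was an alternative. Depth was 435343 to 950281 counts in the 6 libraries; bounds cover counting error only.

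The comparison and the gene lists were chosen with earlier results of these data known. Described genes are all called genes, then those with the smallest p whose groups do not overlap, to 12 in each direction. IDs could not be paired with names, so gene lists, cell markers and promoters were not used.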

Additional observations from a re-analysis of the deposited data

Results flagged for a closer look

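The effects of the 2 intetumumab doses differed in 1 of the 24 leading genes by edgeR's direct test, ENSG00000196998, with a fitted log2 difference of -8.25 between 5 and 1.5 µg/ml (adjusted p = 0.0128). This fitted value depends on how counts of 0 are handled, since all 3 libraries at 5 µg/ml were at 0. The gene passed the filter only with the 1.5 µg/ml libraries, where it stood highest, so this call is partly built in. The effects of intetumumab at 5 µg/ml and VT107 at 2.15 µM differed in 1 of the 24 by edgeR's direct test, ENSG00000083812, by -2.96 on the log2 scale (SE 0.50, adjusted p = 0.0360). Its levels were 60.1, 53.9 and 48.6 CPM with the isotype and 16.1, 8.11 and 14.1 CPM with intetumumab at 5 µg/ml, and it was not called in that comparison (edgeR adjusted p = 0.0699). With VT107 its values went the other way, from a mean of 64.3 CPM in DMSO to 116 CPM (n = 2 each), and it was not called there either (log2 fold change 0.85, SE 0.35, edgeR adjusted p = 0.408).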

How the results depend on the processing

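The direction of the 8 calls held under all alternatives that gave them a value, and scaling by RLE size factors or by the total count left the same 8 genes called. The sets of genes tested differed between settings, so the numbers of calls are not directly comparable with the 8 of 9024. They were 13 of 13493 genes with no filter on low counts and 12 of 5717 with a minimum count of 30. A fit of all labelled libraries called 15 of 10227, and DESeq2 called 100 of the 9024 given to it. With counts divided by the common divisor, 6 of 8604 were called (1 higher and 5 lower). Of the genes tested, 1285 (14.2%) had a divisor above 1, and 2 of the 8 called did. A fit of only the 6 libraries compared gave 1 call, the third fall, among 8497 genes tested. Without both of the shallowest libraries of the experiment, left out after the data were seen, edgeR gave 0 (811 genes at an unadjusted p under 0.05). Leaving out 1 library at a time gave 0 to 3 calls. Same-numbered libraries of the 2 groups were no closer than others by their correlations of deviations (-0.02 to -0.01). Between the 2 doses the correlations were -0.003 to 0.07 for the same number and -0.09 to 0.09 for other numbers. Such values cannot exclude a shared culture or batch. With the replicate number as a block 1 gene was called, the first fall (edgeR adjusted p = 0.0410). The third fall, which was the call of the fit of 6 libraries, was not called there (edgeR adjusted p = 0.0769). With the block 0 of the 24 leading genes differed between doses (edgeR, 10 at an unadjusted p under 0.05). Without it 10 had such a p, where 5.64% of all genes did, a share partly built in by how the 24 were chosen. With DESeq2 8 of the 24 differed between agents, where edgeR had 1. DESeq2 called 104 of all 10227 genes (1.02%) in that comparison. The 24 were chosen by their change with intetumumab, so a higher share among them is partly built in. DESeq2 gave no adjusted p for either rise. The cause of these shifts was not tested. The medians of gene lists were not run, because IDs could not be paired with names.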
